A study of Caenorhabditis elegans with 6 samples.

Results

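The endoplasmic reticulum is where secreted and membrane proteins are folded, and its chaperones and disulfide isomerases were followed here in *C. elegans* treated with RPW-24, a compound with curing activity in infected nematodes. The genes were *hsp-3*, *hsp-4*, *dnj-7*, *dnj-27*, *pdi-1*, *pdi-2*, *pdi-3*, *pdi-6*, *crt-1* and *cnx-1*. They are read by 13 probe sets (groups of short probes for one transcript) that the array annotation assigns to a single gene, out of 22548 probe sets tested, and are 10 of the 17138 genes read in this way. The 10 genes were chosen from the folding machinery with the measured intensities of this same comparison already known, so their values are given as a description, and their *P* values lend no support to the choice. All 10 had a mean log2 intensity of at least 5, so none was lost to a filter on dim probe sets.

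Wild-type N2 animals were hatched as a synchronized population, fed *E. coli* OP50 at 20°C until late in the fourth larval stage, and then moved to liquid medium with the same food. One group received 70 µM RPW-24 and the other only the solvent, DMSO. Both media held 1% DMSO, both groups were kept at 15°C for 15 hours, and no pathogen was given. RNA of whole animals was taken in 3 biological replicates, called G, H and I, and hybridized to 6 Affymetrix arrays, 1 for each letter and treatment. The results text of the study gives 16 hours of exposure where the sample labels and methods give 15.

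The array medians lay between 8.94 and 9.04 in DMSO and between 9.83 and 9.98 in RPW-24, close to the table's lowest intensity of 4.39. Of the probe sets of an array, 35.5% to 37.1% were at that lowest value. Read depth does not apply to arrays, whose number sets the precision. For one gene measured on 3 arrays per group, the smallest two-sided *P* of an exact permutation test is 0.1. Calls were therefore made with limma, which shares information on the spread between probe sets, at a *P* adjusted over all 22548 probe sets of under 0.05. As a check of the labelled tissue, markers of intestine, body wall muscle, epidermis, germline, oocytes, sperm and neurons were measured. Limma called none of these 26 genes, against 4 higher and 3 lower at an unadjusted *P* under 0.05. The share of all probe sets at that unadjusted threshold is not given here, so nothing is read from these counts. All but 5 of the 26 marker genes had a mean log2 intensity of at least 5, the dim ones being *myo-3*, *bli-1*, *dpy-7*, *spe-11* and *rab-3*.

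Proteins enter the endoplasmic reticulum unfolded. Hsp70-type chaperones of the BiP family hold them with the help of DnaJ co-chaperones, protein disulfide isomerases form and rearrange their disulfide bonds, and the lectin chaperones calreticulin and calnexin bind those that carry sugar chains. When unfolded proteins build up, the unfolded protein response, sensed in *C. elegans* by IRE-1, PEK-1 and ATF-6, raises transcription of many of these genes, and *hsp-4* is the gene most used to report it.

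With RPW-24, 6 of the 10 genes rose at the adjusted threshold and none fell. A fit of all probe sets blocked on the replicate letter kept 1 of these 6 calls, that of *pdi-3*. A blocked fit of only those with a mean log2 intensity of at least 5 kept all 6. The genes that rose were *dnj-7*, *hsp-3*, *pdi-2*, *pdi-6*, *crt-1* and *pdi-3*, by between 1.66-fold and 3.82-fold. The other 4, *hsp-4*, *pdi-1*, *cnx-1* and *dnj-27*, did not pass. Over all probe sets, 2.42% were called higher and 1.07% lower, and among those with a mean log2 intensity of at least 5 the share called higher was 4.82%. In 8 of the 10 genes every RPW-24 array lay above every DMSO array, a separation seen in 8.09% of all probe sets and in 15.3% of the brighter ones. Only *dnj-7* passed the study's thresholds of a 3-fold change and an unadjusted *P* under 0.025, applied here to limma's values, which 1.47% of all probe sets passed upward. The methods' t-test at these thresholds called 287 of 22548 probe sets higher, and of the 10 genes again only *dnj-7*. Since the genes were picked with this comparison known, nothing is read from their count against these shares. The median log2 fold change was 0.85 over the 10 genes, 0 over all probe sets and -0.07 over the brighter ones. The RNA was that of whole animals, so more cells of a type and more RNA per cell cannot be told apart. Of 6 intestinal markers, 4 lay above DMSO on every RPW-24 array and 1 below, a direction for which no share of all probe sets is given here. Their median log2 fold change was 0.33. The highest was *ifb-2* at 1.01 (adjusted *P* = 0.064 from limma), then *ges-1* at 0.63 and *act-5* at 0.52. Their summed intensity, most of it *asp-1* (log2 -0.12), spanned 48866 to 58702 in DMSO and 51324 to 56262 in RPW-24. That of 4 body wall muscle markers spanned 7574 to 10848 and 11174 to 14878. The 4 germline markers summed to between 20354 and 20736 in DMSO and between 17346 and 18480 in RPW-24, and the 3 oocyte markers to between 43987 and 47205 and between 38316 and 42029. The sums of the epidermal, sperm and neuronal markers overlapped between the groups. The part of such shifts in the results was not tested.

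**Figure D1:**
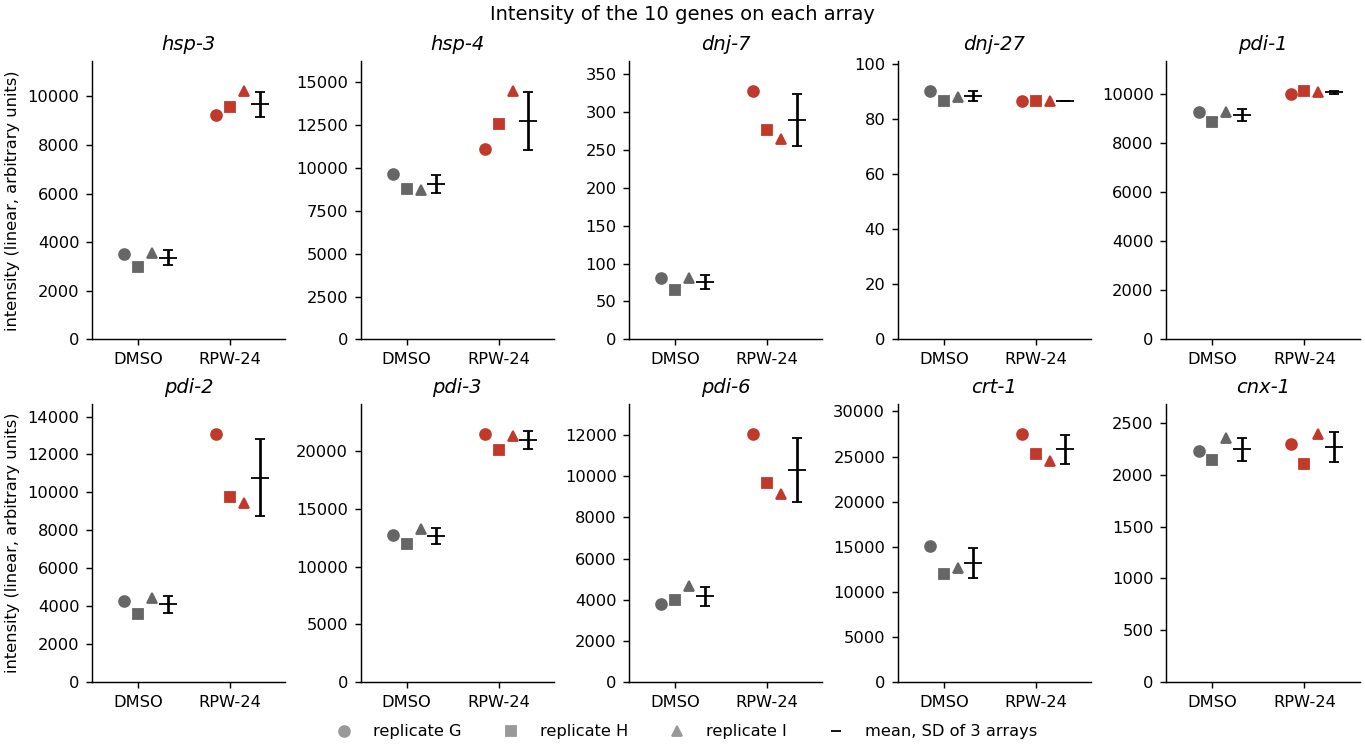
Linear intensity (vertical axes, arbitrary units, each from 0) of the 10 genes on the 3 DMSO and 3 RPW-24 arrays, with the replicate letter as the symbol and the mean with its SD in black. In 8 panels the RPW-24 points all lie above the DMSO points, by the widest ratio in *dnj-7* (75.6 against 289), while those of *dnj-27* and *cnx-1* overlap.

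The BiP homologues of *C. elegans* are *hsp-3* and *hsp-4*, of which only *hsp-3* passed, and the difference between their changes was not tested. *hsp-3* had intensities of 3496, 3000.0 and 3573 on the DMSO arrays G, H and I. On the RPW-24 arrays of the same letters it had 9223, 9554 and 10222. The groups were far apart and each held together closely, with means of 3356 ± 311 (SD, n = 3) and 9666 ± 509 (SD, n = 3). RPW-24 was 2.89-fold higher, a log2 fold change of 1.53 (SE 0.08, adjusted *P* = 0.00276 from limma), with differences of 1.40, 1.67 and 1.52 within G, H and I.

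*hsp-4* is the BiP gene that is the classical reporter of the unfolded protein response. Its intensity in DMSO was 9671 in G, 8790.4 in H and 8722 in I. With RPW-24 it was 11135, 12567 and 14498 for these letters. The lowest RPW-24 array, G, stood above the highest DMSO array, also G, so the groups did not overlap, but the RPW-24 arrays were spread widely. The means were 9061 ± 529 (SD, n = 3) and 12733 ± 1688 (SD, n = 3), 1.40-fold apart, and the log2 fold change of 0.48 (SE 0.11) did not pass (adjusted *P* = 0.126 from limma, unadjusted *P* = 0.00888). Within the letters the log2 difference was 0.20 in G, 0.52 in H and 0.73 in I. In a fit of only the probe sets with a mean log2 intensity of at least 5, *hsp-4* passed (SE 0.10, adjusted *P* = 0.0294 from limma). That fit estimates the shared spread anew and adjusts over fewer probe sets. With the replicate block *hsp-4* did not pass there (0.0647) or over all probe sets (0.343). The names of both probe sets end in _s_at, which marks probes that can match several transcripts, and whether the *hsp-3* and *hsp-4* probes read each other's RNA was not tested.

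The DnaJ proteins of the endoplasmic reticulum stimulate the ATPase of BiP, and of the listed pair *dnj-7* rose and *dnj-27* did not pass. *dnj-7*, the homologue of mammalian p58IPK (DNAJC3), had intensities of 80.8, 65.0 and 80.8 in DMSO and 327, 275 and 264 in RPW-24. Every RPW-24 value was more than 3 times every DMSO value. Its means of 75.6 ± 9.13 (SD, n = 3) and 289 ± 33.9 (SD, n = 3) were 3.82-fold apart, the largest change of the 10 genes (log2 1.93, SE 0.13, adjusted *P* = 0.0051 from limma). Within the letters the log2 difference was 2.02, 2.08 and 1.71. *dnj-27*, the homologue of mammalian ERdj5 (DNAJC10), a co-chaperone with thioredoxin domains, had 90.2, 86.7 and 88.1 in DMSO and 86.7 on each RPW-24 array. Its groups overlapped, and the log2 fold change was -0.03 (SE 0.04, adjusted *P* = 0.928 from limma). The DMSO array H and all 3 RPW-24 arrays carried exactly the same value. Such repeats on 4 or more arrays occur in 493 of 9941 probe sets with a mean log2 of at least 5 and no array at the lowest intensity, and the part of such repeats in the reading of *dnj-27* was not tested. Another probe set names both *dnj-27* and *Y73B6BL.12* and so was not counted for either. It had 120, 135 and 143 in DMSO and 99.7, 74.1 and 115 in RPW-24, with no overlap (log2 -0.48, SE 0.19, adjusted *P* = 0.344 from limma).

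**Figure D2:**
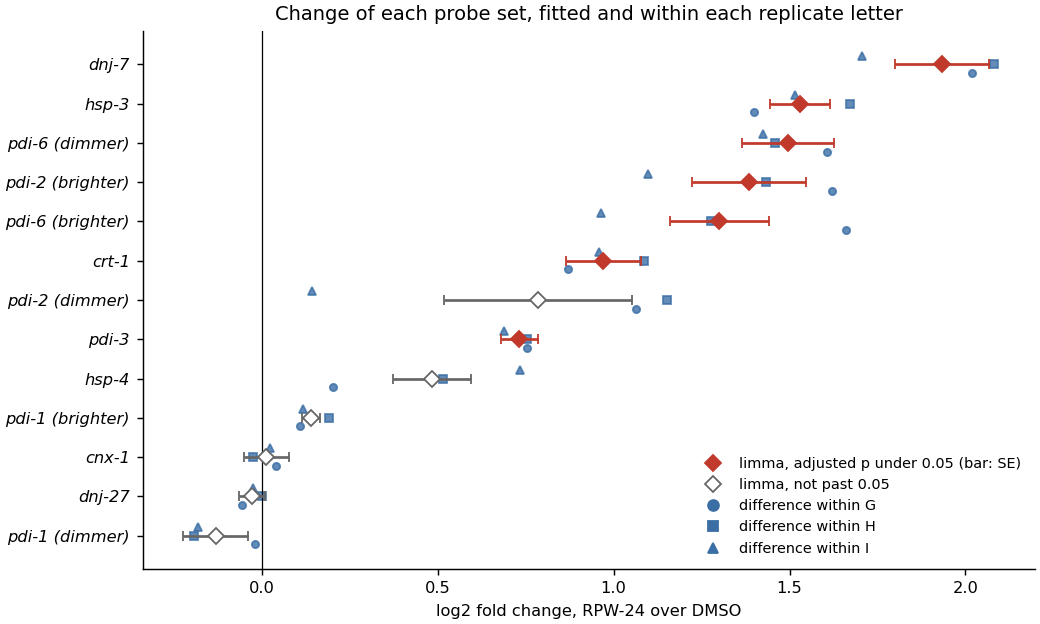
Log2 fold change of RPW-24 over DMSO (horizontal axis) for each of the 13 probe sets: diamonds are the limma estimate with its SE, filled where the adjusted *P* is under 0.05, and blue symbols are the differences within replicates G, H and I. *dnj-7* is highest at 1.93, *cnx-1* and *dnj-27* sit at 0.01 and -0.03, and the brighter and dimmer probe sets of *pdi-1* lie on opposite sides of 0.

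Protein disulfide isomerases form, break and exchange disulfide bonds, and 3 of the 4 listed rose. *pdi-2*, whose product also serves as a subunit of the collagen prolyl 4-hydroxylases of the worm, had 4257, 3603 and 4420 in DMSO and 13102, 9736 and 9465 in RPW-24. The groups were well apart, with the RPW-24 array G above the other two. The means were 4093 ± 432 (SD, n = 3) and 10768 ± 2026 (SD, n = 3), 2.61-fold apart (log2 1.38, SE 0.16, adjusted *P* = 0.0238 from limma). A dimmer probe set of *pdi-2* had 154, 137 and 159 in DMSO and 322, 305 and 175 in RPW-24. There too the groups did not overlap, but the RPW-24 array I lay close to the DMSO arrays, and the log2 fold change of 0.79 (SE 0.27) did not pass (adjusted *P* = 0.276 from limma).

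*pdi-6*, the homologue of mammalian P5 (PDIA6), had 3818, 3995 and 4687 in DMSO and 12075, 9674 and 9150.1 in RPW-24. The lowest RPW-24 array, I, was still above the highest DMSO array, also I. Means of 4167 ± 460 (SD, n = 3) and 10300 ± 1559 (SD, n = 3) gave a 2.46-fold rise (log2 1.30, SE 0.14, adjusted *P* = 0.0188 from limma). The dimmer probe set of *pdi-6* went from 1747, 1470.1 and 1605 to 5325, 4038 and 4305, again without overlap, a 2.82-fold rise (SE 0.13 on the log2 scale, adjusted *P* = 0.0105 from limma). *pdi-6* was thus the 1 gene of the 3 with a pair of probe sets in which both passed.

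*pdi-3*, the homologue of mammalian ERp57, rose by the least of the 6 and with the smallest SE among them. Its intensity was 12744, 11912 and 13247 in DMSO and 21508, 20087 and 21332 in RPW-24. The groups did not overlap, with means of 12634 ± 674 (SD, n = 3) and 20976 ± 774 (SD, n = 3), a 1.66-fold rise (log2 0.73, SE 0.05, adjusted *P* = 0.00576 from limma). The log2 differences within G, H and I were 0.76, 0.75 and 0.69. *pdi-1* was the isomerase that did not pass, and its probe sets disagreed. The brighter had 9279, 8858 and 9279 in DMSO and 10014, 10121 and 10062 in RPW-24, which separates the groups by a small step (log2 0.14, SE 0.03, adjusted *P* = 0.0718 from limma). With each array centred on its median, which shifts all probe sets by -0.14, the value was 0.00. The dimmer had 6348, 6049 and 6982 in DMSO and 6265, 5290.4 and 6159 in RPW-24, with overlap (log2 -0.13, SE 0.09, adjusted *P* = 0.705 from limma).

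Calreticulin and calnexin are related calcium-binding chaperones of glycoproteins, the first soluble in the lumen and the second anchored in the membrane, and here only the soluble one passed. *crt-1*, calreticulin, had 15067, 11931 and 12627 in DMSO and 27546, 25325 and 24517 in RPW-24. The groups were well separated, with means of 13208 ± 1647 (SD, n = 3) and 25796 ± 1568 (SD, n = 3), a 1.96-fold rise (log2 0.97, SE 0.11, adjusted *P* = 0.0191 from limma). *cnx-1*, calnexin, had 2230.3, 2145 and 2360.1 in DMSO and 2293, 2109 and 2398 in RPW-24. These groups overlapped fully, and the log2 fold change of 0.01 (SE 0.06, adjusted *P* = 1 from limma) was smaller than the spread between replicates. With arrays centred on their medians it was -0.13. The change of *crt-1* was not tested against that of *cnx-1*.

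The treatments of a letter were run in parallel, so the letter can be used as a block. With the replicate block, *pdi-3* kept an adjusted *P* under 0.05 (0.0425 from limma), and the other 5 lost it, with 0.0515 for *hsp-3*, 0.0586 for *dnj-7*, 0.0652 for *crt-1*, 0.103 for *pdi-2* and 0.149 for *pdi-6*. The fold changes are the same in both fits, and the block left 166 probe sets higher in the whole table against 545 without it. A blocked fit of only the probe sets with a mean log2 of at least 5 called all 6 genes that rose. Adjusted *P* from limma ran there from 0.00099 for *hsp-3* to 0.0106 for *pdi-6*. That fit, chosen after the data were seen, called 937 of 9951 probe sets higher. When each array was left out in turn, *hsp-3*, *dnj-7* and *pdi-3* passed in all 6 fits, with log2 fold changes of 1.45 to 1.58, 1.83 to 2.00 and 0.69 to 0.77. *crt-1* passed only without the DMSO array G (adjusted *P* = 0.0174 from limma), and had an adjusted *P* of up to 0.0985 without another array. *pdi-2* and *pdi-6* passed only without the RPW-24 array G, their highest (adjusted *P* of 0.0318 and 0.0355 from limma), and reached 0.0952 and 0.0951 without another.

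The genes that rose did not share 1 order over the replicates. Among the RPW-24 arrays, *dnj-7*, *pdi-2*, *pdi-3*, *pdi-6* and *crt-1* were highest in G, and *hsp-3* and *hsp-4* were highest in I. On the RPW-24 array G, *pdi-2* lay 0.30 and *pdi-6* 0.24 above the group mean on the log2 scale, whereas *hsp-4* lay 0.19 below it. On array I, *hsp-4* was 0.20 above its group mean, and *pdi-2* and *pdi-6* were 0.17 and 0.16 below theirs. Once group means were taken off, Pearson's r with *hsp-4* over the 6 arrays was -0.86 for *pdi-6*, -0.63 for *pdi-2* and 0.55 for *hsp-3*. These are descriptions of 6 arrays, for which the sources do not state whether they were normalized together, and no test was made.

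**Figure D3:**
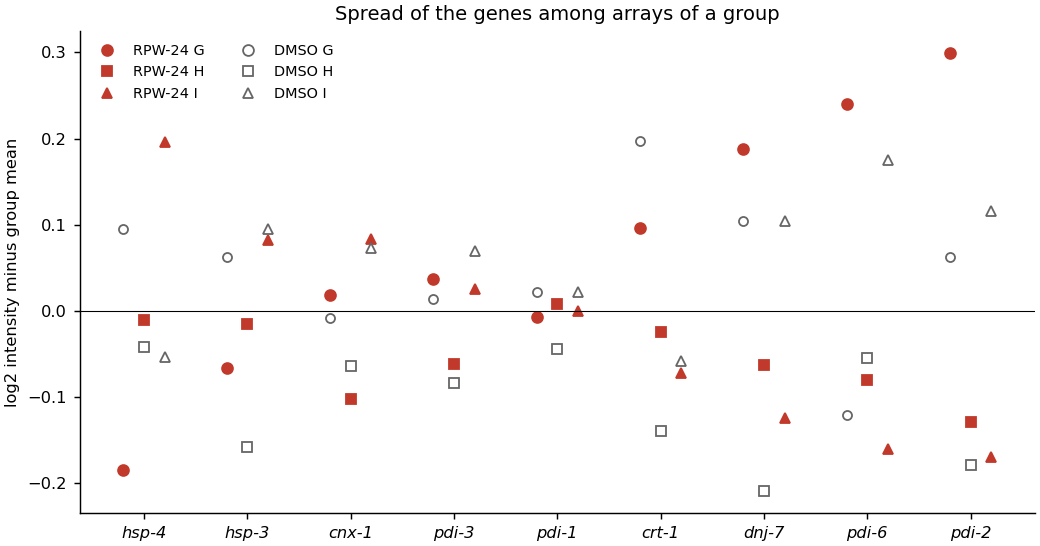
Log2 intensity of each gene minus the mean of its group (vertical axis) on every array, for 9 of the 10 genes (*dnj-27*, with identical RPW-24 values, is not drawn), filled for RPW-24 and open for DMSO. RPW-24 array G (filled circles) runs from -0.19 for *hsp-4* to 0.30 for *pdi-2*, and array I (filled triangles) from 0.20 to -0.17 for the same genes.

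The genes whose log2 intensities followed *hsp-4* most closely were taken from 9463 probe sets that name 1 gene and have a mean log2 of at least 5. They were *mtp-18* and *ttm-1*, each with an r of 0.996 over the 6 arrays, *rml-1* (0.993), *ZK1073.2* (0.991) and *F49E2.5* (0.988). *mtp-18* had 184, 151 and 151.8 in DMSO and 214, 247 and 309 in RPW-24, with the same order of arrays in each treatment but for H and I in DMSO. *F49E2.5* had the largest change of these, 2.08-fold. No listed folding gene was among them, the closest being *hsp-3* with an r of 0.92. As 60 probe sets had an r of at least 0.95, a value this high over 6 arrays does not single out a gene.

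The rest of the folding machinery of the endoplasmic reticulum was read from lists drawn up by function, with earlier results of these arrays known. Of 22 other folding and modification enzymes, all measured, 4 rose, none fell and 18 did not pass, against the 2.42% of all probe sets called higher, with a median log2 fold change of 0.09. *T14G8.3*, a homologue of GRP170, the large Hsp70 relative that exchanges the nucleotide of BiP, had 196, 174 and 226 in DMSO and 896, 690.4 and 943 in RPW-24. This is 4.23-fold with no overlap (log2 2.08, SE 0.16, adjusted *P* = 0.00778 from limma), a larger change than that of any of the 10 genes. *T24H7.2*, the other GRP170 homologue, had a log2 fold change of 0.05 (SE 0.22, adjusted *P* = 1), with overlap.

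*C14B9.2*, a disulfide isomerase like mammalian ERp72, had 476, 397 and 432 in DMSO and 1208, 1364 and 1646 in RPW-24, again apart (log2 1.68, SE 0.14, adjusted *P* = 0.00912 from limma). *enpl-1*, the Hsp90 of the endoplasmic reticulum, rose by less with close replicates, from 9558, 9164 and 9807 to 13712, 14147 and 13837 (log2 0.55, SE 0.03, adjusted *P* = 0.00327 from limma). *ero-1*, the oxidase that recharges disulfide isomerases, had 1051, 948 and 1016 in DMSO and 1456, 1452 and 1650.3 in RPW-24 (log2 0.60, SE 0.07, adjusted *P* = 0.0243 from limma). The dimmer probe sets of *C14B9.2*, *enpl-1* and *ero-1* changed on the log2 scale by a fitted 1.35, 0.39 and 0.59 and missed the threshold (adjusted *P* of 0.132, 0.0761 and 0.0596). *T14G8.3* kept its call with the replicate block (adjusted *P* = 0.0299 from limma), while *enpl-1*, *C14B9.2* and *ero-1* had 0.0775, 0.0976 and 0.11. In the blocked fit of brighter probe sets alone, *enpl-1*, *C14B9.2* and *ero-1* had 0.00638, 0.00458 and 0.0164. Without 1 array in turn, *T14G8.3* and *enpl-1* passed in every fit, *C14B9.2* missed without the DMSO array H or I or the RPW-24 array H (0.0506, 0.0609 and 0.0506), and *ero-1* passed only without the RPW-24 array I (0.0457). *uggt-1*, which marks misfolded glycoproteins with glucose for another round with the lectin chaperones, did not pass by its brightest probe set (log2 0.62, SE 0.15, adjusted *P* = 0.133) but did by a dimmer one (log2 0.71, SE 0.09, adjusted *P* = 0.0279 from limma). Its dimmest probe set overlapped between the groups (log2 0.42, SE 0.20, adjusted *P* = 0.451 from limma). *T24H7.2* and *uggt-1* were picked for mention after their values were seen.

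Of 6 sensors and factors of the unfolded protein response, 1 rose and none fell, with a median log2 fold change of 0.05, where 2.42% of all probe sets and 4.82% of the brighter ones were called higher. That gene was *pek-1*, the kinase that slows translation, with 288, 257 and 299 in DMSO and 456, 458 and 553 in RPW-24 (log2 0.79, SE 0.10, adjusted *P* = 0.0324 from limma). Its dimmer probe set overlapped (log2 0.48, SE 0.22, adjusted *P* = 0.429). The block gave *pek-1* an adjusted *P* from limma of 0.0854, or 0.0117 over brighter probe sets alone. It passed in no fit that lacked an array, the lowest adjusted *P* being 0.0555 without the RPW-24 array I. *xbp-1*, the transcription factor whose message IRE-1 splices, had 3027, 3035 and 2722 in DMSO and 3475, 3793 and 4218 in RPW-24. The groups did not overlap, and the log2 fold change was 0.38 (SE 0.09, adjusted *P* = 0.128 from limma). A dimmer probe set of *xbp-1* also kept the groups apart and did not pass (log2 0.63, SE 0.15, adjusted *P* = 0.126 from limma). As with *hsp-4*, I was the highest and G the lowest of the RPW-24 arrays in both probe sets of *xbp-1*. *ire-1* and *atf-6* overlapped between the groups, with log2 fold changes of -0.04 (SE 0.09, adjusted *P* = 1) and -0.03 (SE 0.04, adjusted *P* = 0.968), and *rtcb-1*, the RNA ligase that joins the cut *xbp-1* message, had -0.39 (SE 0.14, adjusted *P* = 0.315 from limma). Splicing of *xbp-1* was not analysed here.

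Among genes that bring proteins into the endoplasmic reticulum and attach their sugar chains, none was called. Of 17 measured of 20 listed, limma called none at the adjusted threshold, against 7 higher and 2 lower at an unadjusted *P* under 0.05, with the same counts from the methods' t-test. The share of all probe sets at that unadjusted threshold is not given here, so nothing is read from these counts. In 10 of the 17 genes every RPW-24 array was above every DMSO array, and in 2 below. Of probe sets with a mean log2 of at least 5, 15.3% lay above in this way, and the share lying below is not given here. *trap-2*, a subunit of the translocon-associated complex, had 5248, 3608 and 4474 in DMSO and 8532, 6748 and 7959 in RPW-24 (log2 0.81, SE 0.17, adjusted *P* = 0.103 from limma). The other subunits, *trap-1*, *trap-3* and *trap-4*, named after their values were seen, had fitted log2 values of 0.60, 0.48 and 0.37 for RPW-24 over DMSO (limma's adjusted *P*, 0.0849, 0.0805 and 0.0796). *srpa-72*, part of the signal recognition particle, lay below DMSO on every RPW-24 array, with 335, 327 and 339 against 190.3, 209 and 96.1 (log2 -1.09, SE 0.33, adjusted *P* = 0.217 from limma). Over probe sets with a mean log2 of at least 5 alone, 5 genes of this list passed upward, among them *trap-1*, *trap-2*, *trap-3* and *trap-4*, with adjusted *P* of 0.0178 to 0.0218 from limma. That fit called 950 of 9951 probe sets higher.

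The genes of endoplasmic reticulum-associated degradation, which return misfolded proteins to the cytosol for breakdown, showed no called change. Of 15 measured of 16, limma called none. The share of all probe sets at an unadjusted *P* under 0.05 is not given here, so nothing is read from the counts at that threshold. Of the 15 genes, 0 were higher and 3 lower there by limma, and 0 and 3 by the methods' t-test. Their median was -0.04 and their range -0.31 to 0.31, the extremes being *png-1*, the deglycosylase (SE 0.16, adjusted *P* = 0.484), and *ZC506.1*, an alpha-mannosidase relative (SE 0.13, adjusted *P* = 0.402). A dimmer probe set of *ZC506.1* lay below DMSO on every RPW-24 array (log2 -0.30, SE 0.13, adjusted *P* = 0.392 from limma). Its other dimmer probe sets overlapped, at 0.08 and 0.06. The median of these genes was thus within 0.1 of that of the whole table. Over probe sets with a mean log2 of at least 5 alone, 1 gene of this list passed downward, where 673 of 9951 probe sets did. Also 1 passed downward after a further quantile normalization, and 1 without the RPW-24 array G. With arrays centred on their medians 6 passed downward, where 14480 of 22548 probe sets did.

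**Figure D4:**
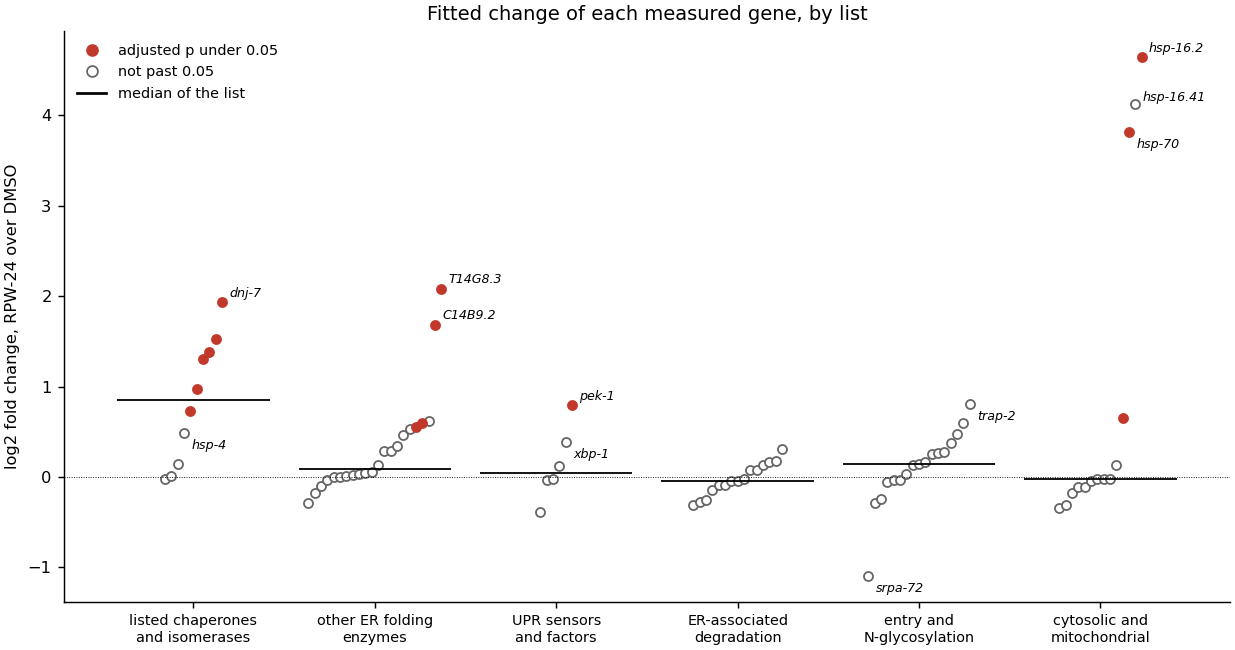
Log2 fold change of RPW-24 over DMSO (vertical axis) for each measured gene in 6 lists, filled where limma's adjusted *P* is under 0.05, with the list median as a line. The 10 chaperones and isomerases have a median of 0.85, the other lists medians between -0.04 and 0.14, and single genes such as *T14G8.3* (2.08) and *hsp-16.2* (4.64) stand far above theirs; *hsp-16.41* was at the table's lowest intensity on all DMSO arrays, so its height is set by that floor.

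Chaperones outside the endoplasmic reticulum were read for comparison. Of 14 measured of 21, 3 rose and none fell, with a median of -0.03, against 2.42% of all probe sets and 4.82% of the brighter ones called higher. *hsp-16.2*, a small heat shock protein of the cytosol, had 9.51, 10.1 and 6.58 in DMSO, near the floor, and 158, 424 and 147 in RPW-24 (log2 4.64, SE 0.49, adjusted *P* = 0.0177 from limma). *hsp-70*, a stress-inducible Hsp70 of the cytosol, went from 10.96, 12.3 and 10.96 to 185, 265 and 84.6 (log2 3.82, SE 0.45, adjusted *P* = 0.0244), and *hsp-25*, a small heat shock protein relative, had a log2 fold change of 0.65 (SE 0.06, adjusted *P* = 0.0126). All 3 were apart from DMSO on every array, and in each the RPW-24 array H was the highest, an order that none of the 6 genes that rose in the list of 10 had. With the block their adjusted *P* from limma were 0.08, 0.11 and 0.0886, and 0.00199, 0.00458 and 0.011 over brighter probe sets alone. With intensities under 32 set to 32 those of *hsp-16.2* and *hsp-70* were 0.103 and 0.137. That floor lowered their log2 fold changes to 2.74 and 2.33, so the size of both depends on DMSO values near the lowest intensity. Without 1 array in turn, *hsp-16.2* passed only without the RPW-24 array H (adjusted *P* = 0.0153 from limma), *hsp-70* only without I (0.0108), and *hsp-25* only without H or I (0.0405 and 0.0096), with adjusted *P* of up to 0.0903, 0.115 and 0.0757 otherwise. *hsp-6* and *hsp-60*, the mitochondrial chaperones, named after their values were seen, stood at -0.31 and -0.34 on the log2 scale, with an adjusted *P* from limma of 0.29 and 0.282. Their dimmer probe sets changed by less. That of *hsp-6* overlapped between the groups (log2 -0.12, SE 0.12, adjusted *P* = 0.778 from limma). That of *hsp-60* lay below DMSO on every RPW-24 array (log2 -0.22, SE 0.09, adjusted *P* = 0.362 from limma).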

How the data were processed

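The deposited table holds a linear intensity for each probe set on each array, which the authors obtained from Affymetrix scans by GC-RMA and quantile normalization, using GenePattern 2.0 and no pooling. The sources used here give no GC-RMA version and do not say whether all arrays were normalized together. Quantile normalization hides a change in total RNA.

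After 77 control probe sets were left out of 22625, 22548 were put on the log2 scale and fitted by lmFit and eBayes (variance trend on) of limma 3.58.1 under R 4.3.3, unpaired and unfiltered. The study's methods name a modified t-test for the arrays and no block. *P* values were adjusted over all probe sets by Benjamini-Hochberg and called at under 0.05. The methods' t-test, for which the unpaired form with equal variances on linear intensities was a choice made here, was run as an alternative. Genes were named from the array annotation and from a gene table of assembly WBcel235, in which 20701 of 20766 single-gene probe sets were found. A gene is given by its probe set of highest mean, and probe sets are not set against each other in level. Plots were made in Python 3.11.15 with matplotlib 3.10.9.

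The genes and lists were chosen with earlier results of these data known. Besides the 10 genes, the called genes of each list were planned for naming. Also planned were the pair of largest absolute log2 fold change in each list, among genes with a mean log2 of at least 5. The sensors *ire-1*, *xbp-1*, *pek-1* and *atf-6* and the 5 genes most like *hsp-4* were planned too. Some other genes were named after their values were seen. The letter pairs the arrays, since the submitters' design text says that both treatments of a biological replicate were run in parallel. Over 9951 probe sets with a mean log2 of at least 5, deviations from the group means had correlations of 0.113 in G, 0.172 in H and 0.162 in I, and of -0.105 to -0.04 between letters. Tested on simulated data with 50 probe sets changed per size, the fit of RPW-24 against DMSO recovered 27 of the 1.5-fold changes, 30 of the 2-fold, 43 of the 3-fold and all 50 of the 10-fold ones. It made 14 false calls among the probe sets left unchanged, of 22548 in all. The changed probe sets were drawn only from bright ones, so recovery at low intensity was not tested. Whether the replicates came from separate cultures is stated only as biological replicates. Promoters and proteins of the genes were not analysed here.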

Additional observations from a re-analysis of the deposited data

How the results depend on the processing

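Of the 10 genes, 6 rose with all arrays, and 3 to 5 without 1 array in turn, 1 with the replicate block (*pdi-3*), 3 by the methods' t-test after Benjamini-Hochberg, 1 at its 3-fold threshold (*dnj-7*), and 1 without probe sets that can match several transcripts (*pdi-6*), where only 3 of the genes were left. The count was 5 to 7 with no variance trend, a mean log2 of at least 5, a floor of 32, centred arrays, a further quantile normalization, the mean of a gene's probe sets (*pdi-2* lost, adjusted *P* = 0.0654 from limma), any probe set, and the paired fit over brighter probe sets, chosen after the data were seen. None of the 10 fell in any setting, and no called value changed sign. Centring added *hsp-4* (adjusted *P* = 0.028 from limma), although its log2 fold change was lower there, 0.35 against 0.48.

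Over all probe sets, 545 were higher and 242 lower, so 69.3% of calls were higher. Without 1 array in turn 274 to 390 were higher and 72 to 156 lower. The replicate block gave 166 and 27, and with a mean log2 of at least 5 gave 937 and 427. That filter alone gave 950 and 673. Centring gave 1112 and 14480 (7.13% higher). It moved the log2 fold change of every probe set by -0.14, also of those at the lowest intensity. A further quantile normalization gave 594 and 814 (42.2% higher), a floor of 32 gave 390 and 144, and leaving out probe sets of several transcripts 300 and 99. The methods' t-test gave 177 and 57 after Benjamini-Hochberg, and 287 and 67 at 3-fold. Beyond the shift of centring and the fewer arrays or probe sets that some settings hold, the cause of these moves was not tested. The search of promoters and proteins was not run. Changes under 1.5-fold were not simulated, so how often they could be called with 3 arrays per group was not tested.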

Other observations

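The proline hydroxylation enzymes that use the *pdi-2* product as a subunit did not pass. The catalytic subunits *dpy-18* and *phy-2* stood at 0.02 and -0.10 on the log2 scale, with overlapping groups (limma's adjusted *P* = 1 for each), against 1.38 for *pdi-2*. The difference between them was not tested. *fkb-5*, a prolyl isomerase, and *dnj-20*, a DnaJ homologue of mammalian ERdj3, lay above DMSO on every RPW-24 array with log2 fold changes of 0.53 and 0.47, and neither passed (adjusted *P* of 0.354 and 0.233 from limma). The dimmer probe set of *dnj-20* overlapped between the groups (log2 0.34, SE 0.29, adjusted *P* = 0.731 from limma). *erp-44.1*, an ERp44 homologue that retains oxidases, had 1026, 926 and 931 in DMSO and 1127, 1156 and 1383 in RPW-24 (log2 0.34, SE 0.10, adjusted *P* = 0.196 from limma), with the array I highest, as for *hsp-4* and *xbp-1*. All of these genes but *pdi-2*, *hsp-4* and *xbp-1* were picked after their values were seen.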
